A study of Mus musculus with 24 samples.

Results

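Colonic polyps of ApcMin mice were set against normal colon of ApcMin mice. They were chosen by the tissue named in the labels, which gives 3 polyp arrays and 3 normal colon arrays, 6 of the 24 Affymetrix MOE430_2 arrays of the series. ApcMin mice carry a germline truncating mutation in 1 allele of Apc, so that both tissues share the mutation, and every comparison is between tissues of the same genotype. Each polyp array holds pooled polyps from the colon of a single mouse, and each normal array holds colonic mucosa of a single mouse. Polyp 1, polyp 2 and polyp 3, and normal colon 1, normal colon 2 and normal colon 3, came from 6 differently named animals. The study's methods call the normal and polyp tissue paired, but these names give no pairs, and the comparison is unpaired. The labels state that the mice behind 5 of the 6 arrays were untreated and do not state this for polyp 1. Age and sex of the mice are not given in the sources used here. Pooling averages polyps of unknown number, size and stage, so that a value describes a mouse and not a polyp.

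Apc is part of the complex that marks beta-catenin for destruction, and its loss leaves beta-catenin free to switch on Wnt target genes together with Tcf factors. In the normal colon, Wnt signals keep stem cells dividing at the base of the crypt, while cells that move up stop dividing and become absorptive colonocytes, mucus-secreting goblet cells or hormone-secreting enteroendocrine cells. Adenomas of the ApcMin mouse form after the remaining Apc allele is lost, and they hold stroma, vessels and immune cells as well as epithelium.

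Values are array signals in arbitrary units, scaled so that the centre of each array is 100, and a log2 difference is the mean of log2(signal + 16) in polyps minus that in normal colon. The offset of 16 understates the change of dim genes. Each gene is given by its brightest probe set, and a gene is called higher or lower where the adjusted p of limma was under 0.05. Of 15427 genes, 1172 (7.6%) were higher and 1417 (9.19%) were lower in polyps, and 12838 were neither. An unadjusted p under 0.05 was reached by 4912 genes. The median difference over all genes was -0.017, and the median standard error was 0.25. The 3 polyps lay on 1 side of the 3 normal samples in 5840 genes (37.9%). Leaving out polyp 1 reduced the count of higher genes to 637 and that of lower genes to 848, and 1294 of the 2589 called genes were called whichever array was left out. The correlation of log2 signals was 0.940 to 0.964 among polyps, 0.938 to 0.966 among normal samples and 0.855 to 0.893 between the groups. The 3' to 5' ratio of Actb probe sets, a sign of RNA quality, was 1.05 to 1.15 in polyps and 1.04 to 1.27 in normal colon. The same ratio of Gapdh was 0.771 to 0.796 in polyps and 0.806 to 1.15 in normal colon, and its part in the results was not tested. A code of unstated meaning in the labels begins with other letters on the polyp arrays than on the normal arrays, so that tissue and whatever the code stands for cannot be told apart. The title of normal colon 1 also starts with another number than those of the other 5 arrays, and this array had the highest ratio of both genes, 1.27 for Actb and 1.15 for Gapdh. Without it 972 genes were higher and 1143 lower.

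The tissue labels were checked against markers. Hoxd13 and Hoxb13, which mark the distal gut, were at 774 to 1209 and 874 to 1367 in polyps, against 1643 to 1859 and 1774 to 2356 in normal colon, while the 18 small intestinal arrays of the series held 24.7 to 81.4 and 1.25 to 4.42. Both genes were called lower in polyps than in normal colon. Hoxd13 lost its call with any array left out, and Hoxb13 kept it only without polyp 3. Apoa4, an apolipoprotein of the small intestine, was at 2.78 to 21.6 in polyps and 5.36 to 14.7 in normal colon, against 2501 to 10070 in small intestine. Epcam, a surface protein of epithelial cells, was at 5291, 4092 and 6618 in polyps, against 9704, 7598 and 5992 in normal colon and was not called. The labels call the normal samples mucosa, but smooth muscle genes were well represented in them. The summed signal of 22 smooth muscle genes was 7388 to 13741 in polyps, against 23574 to 35898 in normal colon. Enteric nerve, glia and Cajal cell genes summed to 1682 to 1976 in polyps, against 3716 to 4433 in normal colon, and adipocyte and mesothelium genes to 390.0 to 468 in polyps, against 1213 to 2131 in normal colon. These sums do not overlap between the groups, and they run against polyps, as do many of the lower genes below. Whether a lower level comes from fewer cells of a type or from less RNA per cell cannot be told apart in these bulk samples.

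**Figure D1:**
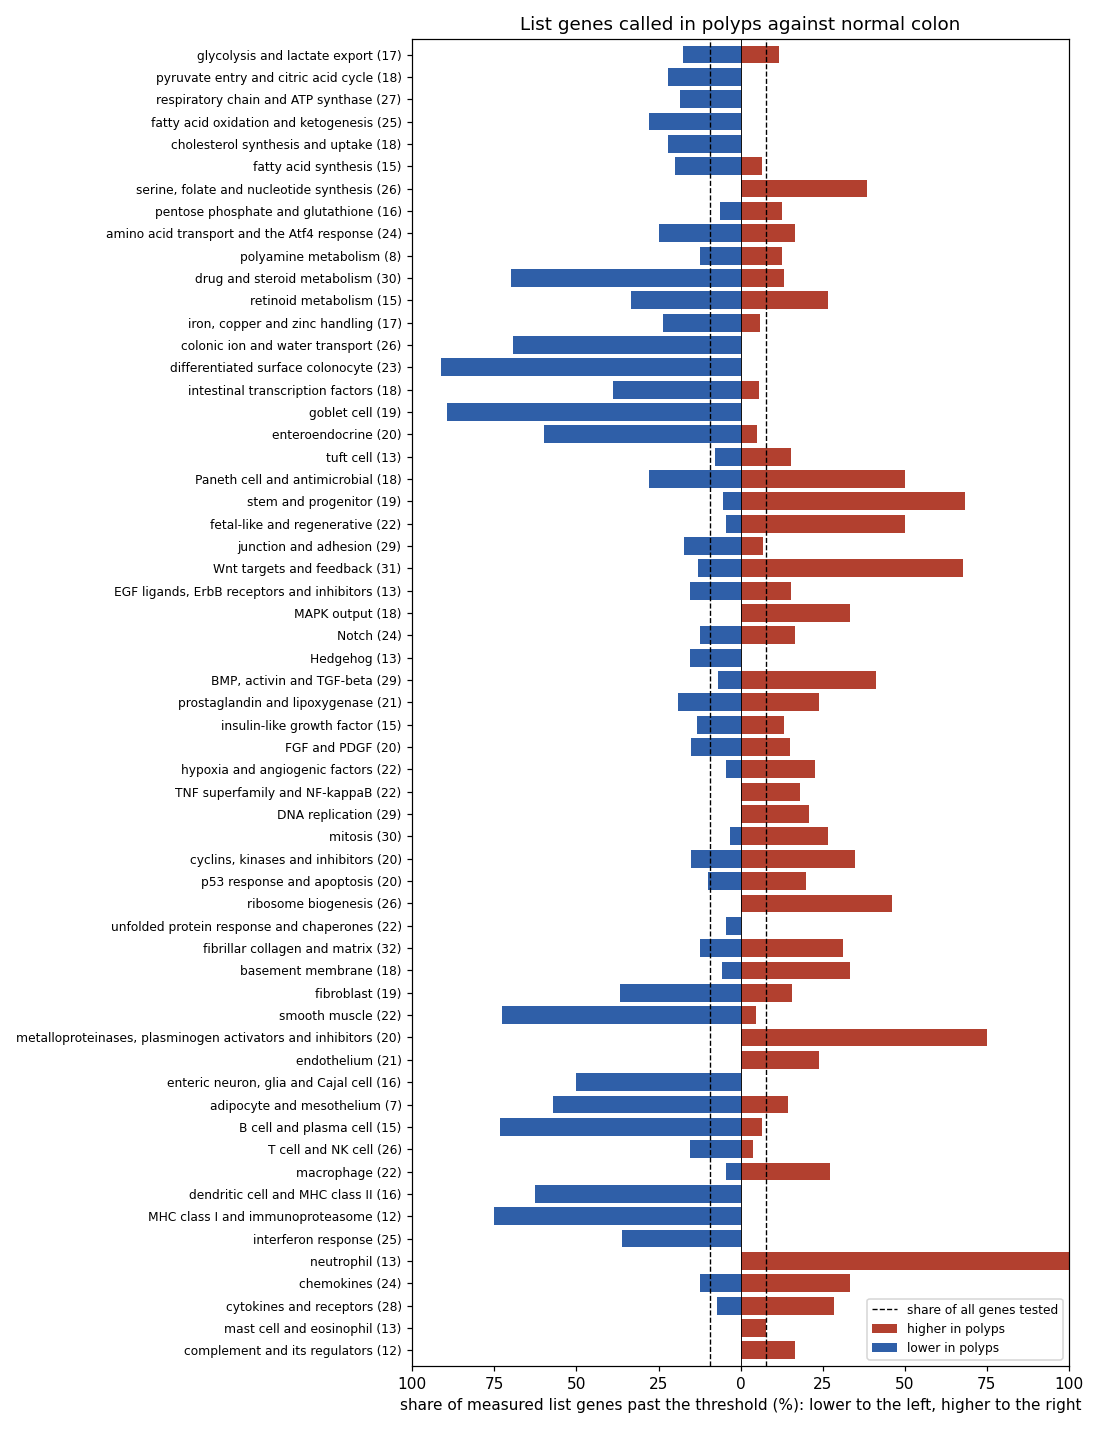
Percent of the measured genes of each list (number in brackets) called higher in polyps (red bars, to the right) and lower in polyps (blue bars, to the left) than in normal colon by limma, with dashed lines at the share of all 15427 genes (7.6% higher, 9.19% lower). The colonic ion and water transport, surface colonocyte and goblet cell lists reach far to the lower side, and the Wnt, proteinase and neutrophil lists to the higher side.

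Most genes that let the colon absorb salt and water were lower in polyps. Of 26 such genes 18 were lower and 0 higher, with a median log2 difference of -2.07. Slc26a3, the chloride and bicarbonate exchanger of surface cells, had the largest decrease of all genes. Its signal was 8.17, 182 and 83.8 in polyps, against 6923, 7175 and 5666 in normal colon, a log2 difference of -6.39 with a standard error of 0.60 (limma, adjusted p = 0.000159). The polyps themselves differed in it, polyp 1 being the lowest, and the difference was -5.55 without polyp 1 and -7.06 without polyp 2. Car4, a carbonic anhydrase of the cell surface, was at 94.3, 138 and 103 in polyps, against 7640.3, 6376 and 4484 in normal colon, a difference of -5.58 ± 0.26 (SE; limma, adjusted p = 6.78e-06). Aqp8, a water channel, was at 59.3, 127 and 65.3 in polyps, against 1512, 4016 and 2786 in normal colon, and Atp12a, the colonic proton and potassium pump, at 76.3, 189 and 223 in polyps, against 1869, 5389 and 4629 in normal colon. All 3 polyps were below all 3 normal samples in each of these genes. Slc5a8, which takes up short-chain fatty acids, differed by -3.67, Slc9a2, a sodium and proton exchanger, by -3.54, Scnn1a, a subunit of the epithelial sodium channel, by -2.39, and Nr3c2, the mineralocorticoid receptor, by -2.17. The decreases were not shared by the whole list. Slc9a3, another sodium and proton exchanger, was not called, but its differences were 0.76 to 1.69 with each array left out. It was called higher without normal colon 2, while its other probe set gave -0.42. Kcnq1, a basolateral potassium channel, was at 509.8, 464 and 544 in polyps, against 377, 544 and 504 in normal colon, and Slc12a2, the cotransporter that loads chloride for secretion, at 3905, 3679 and 5203 in polyps, against 3402, 3582 and 2603 in normal colon, and neither passed the test.

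Surface colonocyte genes followed the same direction, with 21 of 23 lower, 0 higher and a median of -2.28. Krt20, a keratin of the crypt surface, was at 633, 677 and 618 in polyps, against 4641, 5733 and 3794 in normal colon (log2 difference -2.83 ± 0.23, SE; limma, adjusted p = 7.16e-05). Klf4, a transcription factor that halts division in differentiating cells, was at 554, 637 and 1021 in polyps, against 5137, 4290.4 and 4008 in normal colon. Mxd1, an antagonist of Myc, was at 614, 570.5 and 477 in polyps, against 3045, 3616 and 2964 in normal colon. The groups did not overlap in any of these genes. The brush border proteins Cdhr2 (-3.23) and Cdhr5 (-2.81) and the membrane mucin Muc3 (-2.98) were also lower. Among 18 transcription factors of the intestine, 7 were lower and 1 higher. Vdr, the vitamin D receptor, differed by -3.33, Cdx2, which maintains intestinal identity, by -2.30, Cdx1 by -1.52 and Hnf4a by -1.49. Klf5 (-0.03), Elf3 (-0.42) and Sox9 (0.60) did not pass the test. The exception was Gata5, a factor of endoderm development, which was at 194, 136 and 149 in polyps, against 55.1, 21.7 and 34.5 in normal colon. Without polyp 3 the list had 2 higher genes.

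Goblet cell genes were lower in 17 of 19 cases, with 0 higher and a median of -1.90, and their summed signal was 15367 to 27102 in polyps, against 69124 to 101140.0 in normal colon. Atoh1, the factor that commits cells to the secretory lineage, was at 129.8, 144 and 206 in polyps, against 943, 1108 and 1249.5 in normal colon (limma, adjusted p = 0.000131). Retnlb, a resistin-like peptide of goblet cells, was at 169.7, 88.5 and 267 in polyps, against 4654, 5689 and 7534 in normal colon, and Clca1, a protein of the secreted mucus, at 275, 1019.9 and 405 in polyps, against 12438, 8957 and 7112 in normal colon. Muc2, the gel-forming mucin, was at 2278, 3385 and 4697 in polyps, against 12598, 9269.6 and 7527 in normal colon, a difference of -1.53 ± 0.31 (SE), smaller than that of Retnlb (-5.05 ± 0.35). The signal of Muc2 and of several other goblet genes in normal colon came near the brightest values of the arrays, where an array can understate a difference. Enteroendocrine genes were lower in 12 of 20 cases and higher in 1. The precursor of glucagon-like peptides, Gcg, was at 34.2, 44.2 and 19.2 in polyps, against 516, 719 and 542 in normal colon, and Insl5, a hormone of colonic L cells, at 37.3, 52.6 and 42 in polyps, against 429, 799 and 689 in normal colon. Chgb, a protein of secretory granules, differed by -3.18. Pyy, which the same L cells release, was at 1518, 977 and 2268 in polyps, against 765, 1279 and 856 in normal colon, with overlapping groups and no call (difference 0.66). Isl1, a factor of endocrine and mesenchymal cells, was the higher member, at 246, 283 and 702 in polyps, against 61.1, 120.3 and 89.7 in normal colon. Tuft cell genes gave no such pattern. Of 13 genes, 10 were neither, including Dclk1 (-0.18) and Trpm5 (-0.56), while Avil, which codes for the actin-binding protein advillin, was at 904, 761 and 1481 in polyps, against 104, 72.5 and 154 in normal colon. Of the 2 higher members and 1 lower, 1 was higher without any array but polyp 2 and none was lower without any array but normal colon 3.

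Antimicrobial genes moved in both directions, 9 of 18 being higher and 5 lower. Reg3b and Reg3g, lectins that act on bacteria, were at 2588, 1972 and 2425 and at 978, 1012 and 1405 in polyps, against 66, 81.8 and 45.4 and 9.55, 49.8 and 2.63 in normal colon. Their differences were 4.88 ± 0.25 and 5.17 ± 0.41 (SE; limma, adjusted p = 7.83e-06 and 6.72e-05). Pla2g2a, a secreted phospholipase of Paneth cells that is known as a modifier of polyp number in this model, was at 8085, 6389 and 2909 in polyps, against 222, 318 and 188 in normal colon. In polyp 1 and polyp 2 it gave the brightest signal of the array, so that the order of these polyps cannot be read from it. Lyz1, the lysozyme of Paneth cells, was at 4873, 3135 and 6164 in polyps, against 1952, 3382 and 1755 in normal colon and was not called, although it was called higher without polyp 2 or without normal colon 2. The lower members included Reg4, a lectin of secretory cells (-1.99), Pigr, which carries immunoglobulin A into the lumen (-1.72), and Ang4 (-1.68). Defa31, an alpha-defensin, had the third largest increase of all genes, at 3042, 564 and 1189 in polyps, against 4.92, 4.54 and 3.29 in normal colon. Without polyp 1 the difference was 5.37, and its probe set can cross-hybridise to other members of the defensin family.

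Junction and adhesion genes were mostly neither (22 of 29), with 2 higher and 5 lower. The claudins, which set the permeability of tight junctions, went in different directions. Cldn4 was at 2109, 1284 and 2279 in polyps, against 157, 261 and 268 in normal colon, while Cldn8 was at 160.0, 176 and 289 in polyps, against 1744, 793 and 734 in normal colon and Cldn15 at 104, 150.2 and 127 in polyps, against 408, 629.9 and 426 in normal colon. Without polyp 1 or without normal colon 3 the list had 1 higher gene. Cdh1, the epithelial cadherin, was at 2537, 2341 and 3012 in polyps, against 4712, 3821 and 3356 in normal colon and was not called. All 3 polyps lay below all 3 normal samples in Cdh1.

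**Figure D2:**
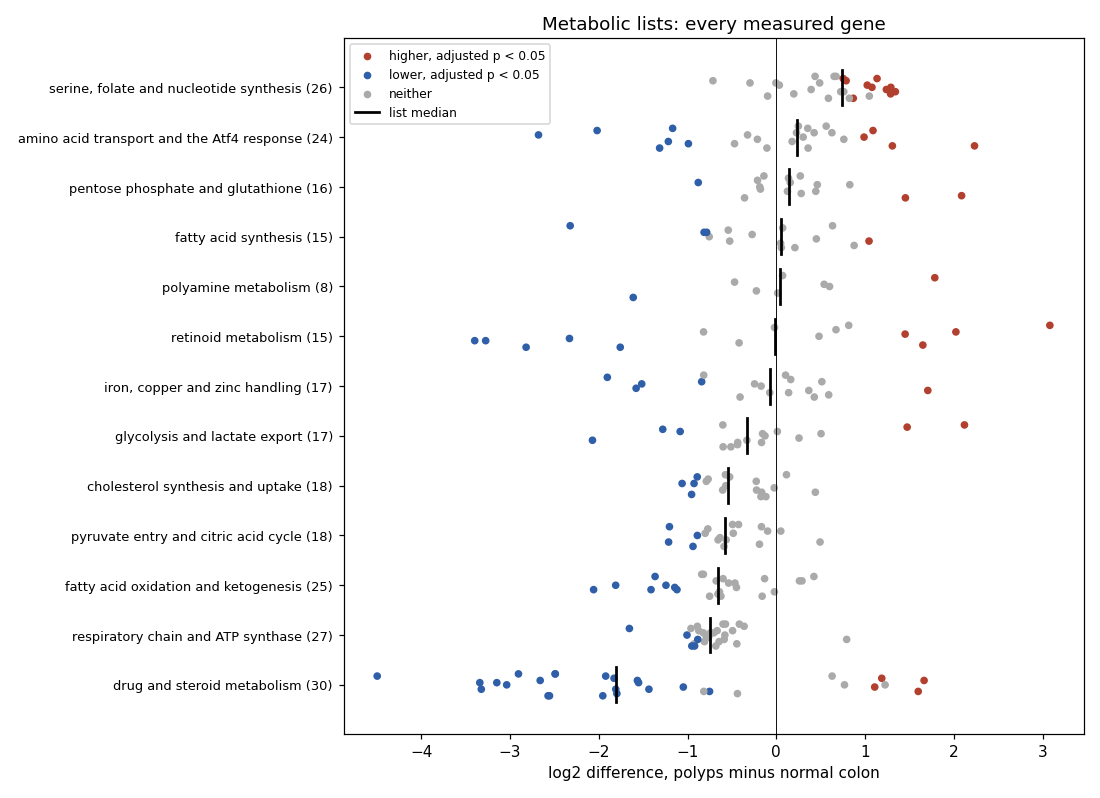
Log2 difference, polyps minus normal colon, of every measured gene of the metabolic lists, 1 point a gene, with red and blue points for genes called higher and lower by limma, grey points for neither and a black bar at each list's median. The median of drug and steroid metabolism lies at -1.80 and that of serine, folate and nucleotide synthesis at 0.74.

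In metabolism, enzymes and pumps that handle drugs and steroids were lower. Of 30 such genes 21 were lower and 4 higher in polyps, with a median of -1.80. Sult1a1, a sulfotransferase of phenols, was at 78.4, 54.8 and 90.5 in polyps, against 1799, 2333 and 1898 in normal colon (log2 difference -4.49 ± 0.24, SE; limma, adjusted p = 9.96e-06). Cyp3a13, a cytochrome P450, was at 38.6, 66 and 73.9 in polyps, against 604, 1072 and 603 in normal colon. Hsd11b2, which inactivates glucocorticoids, was at 206, 279 and 263 in polyps, against 2088, 1608 and 1330.3 in normal colon. The monoamine oxidases Maoa (-2.49) and Maob (-3.15) and the efflux pumps Abcb1a (-2.57) and Abcg2 (-2.49) were lower. Abcc2 (1.66) and Ces1g, a carboxylesterase (1.60), were higher. Several of these enzymes belong to families with similar sequences, so that a probe set may read more than its own gene. Selenbp1, a selenium-binding protein that oxidises methanethiol, was among the largest decreases of all genes, at 104, 139 and 191 in polyps, against 5803, 5769.5 and 4010.1 in normal colon, and so was Akr1c14, an aldo-keto reductase acting on steroids, at 12.8, 48.5 and 52.3 in polyps, against 1356, 1769 and 1201 in normal colon.

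Retinoid genes went in both directions, with 4 higher and 5 lower of 15. Aldh1a1, which makes retinoic acid, was at 11.4, 8.46 and 42.2 in polyps, against 285, 486 and 285 in normal colon, and Adh1, an alcohol dehydrogenase, at 1131, 597 and 1284 in polyps, against 10010.0, 6179.9 and 5139 in normal colon. Rdh16, a retinol dehydrogenase, differed by -3.27. Against these, Stra6, a membrane receptor for retinol-binding protein, was at 672, 429 and 1078 in polyps, against 45.6, 85 and 72.9 in normal colon, and Rdh10, another retinol dehydrogenase, at 1534, 1529 and 1872 in polyps, against 378, 420.3 and 376 in normal colon. Rarb, a retinoic acid receptor that retinoic acid itself induces, was at 238, 203 and 281 in polyps, against 47.9, 44.5 and 122 in normal colon (difference 1.65).

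Glycolytic genes did not rise together. Of 17 genes 2 were higher and 3 lower, with a median of -0.33. The called genes include transporters and a regulator. Slc16a1, the monocarboxylate transporter that takes up butyrate and lactate, was at 571, 656 and 415 in polyps, against 2361, 2466 and 2123 in normal colon (log2 difference -2.07 ± 0.24, SE; limma, adjusted p = 0.000441). Slc16a3, a related transporter known for lactate export, was at 613, 364 and 877 in polyps, against 98, 136 and 134 in normal colon (difference 2.12 ± 0.31, SE; adjusted p = 0.00191). Pfkfb3, which makes the activator of phosphofructokinase, was at 441, 211 and 221 in polyps, against 89.7, 102 and 76 in normal colon. Slc2a1, the glucose transporter (-0.15), Hk2 (-0.33), Pkm (0.01) and Ldha (-0.60) were not called, and Hk1 was lower (-1.08). The list's median was -0.03 after quantile normalization.

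Lists of mitochondrial energy metabolism had medians below 0, with few genes called. In the respiratory chain 5 of 27 genes were lower and 0 higher, and the median was -0.74. In the citric acid cycle 4 of 18 were lower and 0 higher, with a median of -0.58. Fatty acid oxidation and ketogenesis had 7 of 25 lower and 0 higher, with a median of -0.65. These counts depended on the arrays. Without polyp 3, 15 respiratory, 7 citric acid cycle and 10 fatty acid oxidation genes were lower. Without polyp 1, polyp 2 or normal colon 2 these counts were 1, 2 and 4, and without normal colon 1 that of the citric acid cycle was 2. Centring on housekeeping genes left 1 respiratory gene called, and quantile normalization moved the median of that list to -0.46. Members that stayed called with any array left out included Suclg2 and Suclg1, subunits of succinyl-CoA ligase (-1.20 and -1.21), Cox7a1, a cytochrome oxidase subunit of muscle (-1.65), and Slc25a20, the carnitine carrier of the mitochondrial membrane, at 356, 274 and 590.3 in polyps, against 1747, 2217 and 1182 in normal colon. Ehhadh, of peroxisomal fatty acid oxidation (-1.41), and Bdh1, of ketone body metabolism (-1.37), stayed called too, as did Cd36, a fatty acid transporter of several cell types (-1.81).

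Few genes of lipid synthesis were called. Cholesterol synthesis had 4 of 18 genes lower and 0 higher (median -0.55), and none was called when the arrays were centred on housekeeping genes or when polyp 1, polyp 2, normal colon 1 or normal colon 2 was left out. Srebf2, the factor that drives the pathway, was at 688, 715 and 1089.5 in polyps, against 438, 765 and 625 in normal colon and was not called. Of 15 fatty acid synthesis genes 1 was higher and 3 lower. Without polyp 1 none was higher, without normal colon 1, 2 were, and without polyp 1, polyp 2, normal colon 2 or normal colon 3, 1 was lower. Acss2, which makes acetyl-CoA from acetate, was at 171, 188 and 265 in polyps, against 1689, 882 and 860.0 in normal colon (difference -2.32 ± 0.30, SE; limma, adjusted p = 0.000971). Fasn, the fatty acid synthase, was at 1066, 1376 and 1641 in polyps, against 972, 1057 and 905 in normal colon and was not called.

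Part of the genes that make nucleotides, serine and folate units were higher. Of 26 genes 10 were higher and 0 lower, with a median of 0.74, against -0.017 over all genes. Uck2, a uridine and cytidine kinase, was at 741, 784 and 758 in polyps, against 209, 299.5 and 389 in normal colon. Shmt2, the mitochondrial serine hydroxymethyltransferase, was at 545, 583 and 477 in polyps, against 242, 224 and 187 in normal colon, and Psat1, of serine synthesis, at 339, 298 and 351 in polyps, against 141, 161 and 84.6 in normal colon. Gmps (1.08) makes purines, and Rrm1 (1.29) is a subunit of ribonucleotide reductase. Mthfd2, the mitochondrial folate enzyme, was not called (0.39). Without polyp 1 the count of higher genes was 5.

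Genes of amino acid transport and the Atf4 response went in both directions, with 4 higher and 6 lower of 24. Slc7a5, the large neutral amino acid transporter, was at 329.7, 321 and 398 in polyps, against 39.8, 91.1 and 61.8 in normal colon (difference 2.23 ± 0.27, SE; limma, adjusted p = 0.000619), and its partner chain Slc3a2 at 1101, 768 and 1384 in polyps, against 723, 788 and 627 in normal colon, which was not called. Slc7a11, the cystine and glutamate exchanger, was at 105, 115 and 93.6 in polyps, against 25.3, 32.1 and 26.5 in normal colon. The apical absorptive transporters Slc6a14 (-2.68), Slc1a1 (-2.02) and Slc7a9 (-1.31) were lower. Asns (0.23) and Trib3 (0.43), targets of Atf4, were not called, while Sesn2, which amino acid shortage induces, was higher (1.31). Among polyamine genes, Smox, spermine oxidase, was at 1075, 791 and 964 in polyps, against 258, 242 and 283 in normal colon, Aoc1, which breaks down putrescine and histamine, was at 356, 367 and 675 in polyps, against 1296, 1429 and 1464 in normal colon, and Odc1, the ornithine decarboxylase, was at 1574, 1623 and 1610.1 in polyps, against 1299.7, 1088 and 935 in normal colon and was not called. The difference in Odc1 was 0.54, although its polyp values were all above its normal values.

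Among genes of metal handling 1 of 17 was higher and 4 lower, and 2 were lower without polyp 1, normal colon 2 or normal colon 3. Slc30a2 and Mt3, which are not in that list, were among the 15 largest increases of all genes. Slc30a2, a zinc carrier, was at 995, 1028 and 2341 in polyps, against 38.9, 26.3 and 25.5 in normal colon (log2 difference 4.89 ± 0.33, SE; limma, adjusted p = 3.84e-05), and Mt3, a metallothionein, at 1035, 929 and 2613 in polyps, against 15.5, 38.9 and 32 in normal colon. Mt1 was at 1551, 854 and 3361 in polyps, against 567, 3111 and 3592 in normal colon and Mt2 at 1337, 897 and 3215 in polyps, against 206, 1908 and 2715 in normal colon. Both varied within the groups, with normal colon 1 far below the other normal samples, and neither was called. The iron exporter Slc40a1 (-1.52) and its partner oxidase Heph (-1.90) were lower. The higher member was Cp, the plasma ferroxidase ceruloplasmin, which was at 712, 547 and 951 in polyps, against 180.5, 268 and 188 in normal colon. Tfrc, the transferrin receptor, was at 2479, 1494 and 2604 in polyps, against 4807, 1578 and 1479.8 in normal colon on its brightest probe set and was not called, but its other 2 probe sets were called higher, by 1.62 and 1.33, so that no direction is given for it. Hmox1, which frees iron from haem and is counted with glutathione genes, was at 251, 126 and 226 in polyps, against 29.7, 35.8 and 34.7 in normal colon (difference 2.09).

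Among Wnt genes, 21 of 31 were higher and 4 lower, with a median of 1.54. Secreted inhibitors and other feedback genes were prominent. Wif1, which binds Wnt ligands, was at 1159.9, 985 and 1403 in polyps, against 35, 26.7 and 23.7 in normal colon (log2 difference 4.75 ± 0.23, SE; limma, adjusted p = 6.78e-06). Dkk2, an antagonist of Lrp co-receptors, was at 248, 225 and 593 in polyps, against 3.33, 7.36 and 12.1 in normal colon, and Notum, which removes the lipid from Wnt ligands, at 1325, 916 and 2283 in polyps, against 74, 108 and 78.9 in normal colon. Polyp 3 was the highest polyp in each of these genes. The ligands Wnt5a (1.90), Wnt6 (2.16) and Wnt10a (1.96) were higher. The lower members were Tcf7l1 (-2.74) and Tcf7l2 (-1.26), Tcf factors that bind beta-catenin, and the inhibitors Sfrp1 (-0.97) and Sfrp2 (-1.39). The call of Sfrp1 was lost without polyp 1, polyp 2, normal colon 1 or normal colon 3. Ctnnb1, which codes for beta-catenin, was at 4956, 4110.0 and 6248 in polyps, against 6128, 5124 and 4229.9 in normal colon, with no difference called (-0.02). Of stem and progenitor genes, which share Lgr5, Axin2, Rnf43, Znrf3 and Cd44 with other lists, 13 of 19 were higher and 1 lower. The lowest difference in that list was -1.43. Hopx was not called, and its difference was 0.30 to 0.69 with each array left out. Smoc2, a matrix protein of crypt base cells, was at 1341, 1041 and 1522 in polyps, against 342, 354 and 250.2 in normal colon, and Ascl2, a factor that maintains stem cells, at 414, 515 and 528 in polyps, against 163, 158 and 192 in normal colon. Olfm4, a stem cell marker of the small intestine, was below the centre of every array and was not called (64.9, 28.6 and 38.5 in polyps, against 23, 33.9 and 52.6 in normal colon).

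Genes of a fetal-like or regenerative state, some of them targets of Yap, were higher in 11 of 22 cases and lower in 1. Tead2, a partner of Yap, was at 245, 207 and 387 in polyps, against 21.4, 21.2 and 13.5 in normal colon, and Ajuba, a regulator of the Hippo pathway, at 463, 467 and 627 in polyps, against 71.8, 60.8 and 54 in normal colon. Il33, a cytokine of barrier cells, was at 493, 532 and 335 in polyps, against 63, 64.4 and 50.3 in normal colon, and Clu, which marks revival stem cells, at 2677, 2124 and 2589.7 in polyps, against 724, 1184 and 361 in normal colon. The lower member, Anxa3 (-0.82), lost its call whichever array was left out. Yap1 itself was not called (0.52), and neither were Ankrd1 (0.41) and Amotl2 (0.29), which Yap induces in many cells. Ccn1 and Ccn2, other targets of Yap, were called higher. The difference of Ccn1 was 1.498 to 2.051 with each array left out, and its call was always kept. That of Ccn2 was 1.149 to 1.936, and its call was lost without polyp 1, polyp 3 or any of the normal samples.

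**Figure D3:**
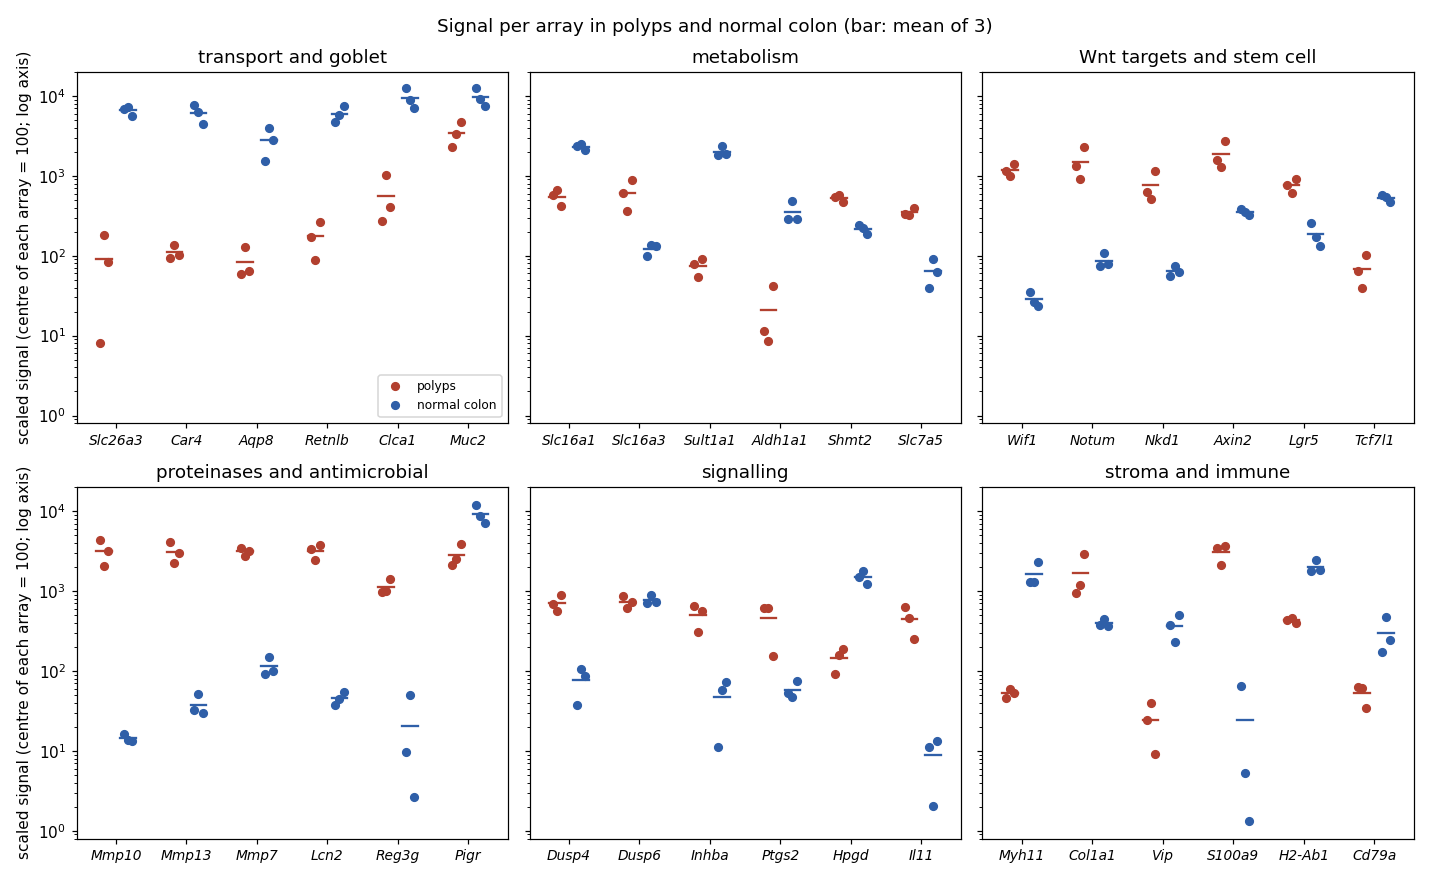
Scaled signal (log axis, array centre at 100) of 36 genes in the 3 polyps (red, left of each pair, in the order polyp 1 to 3) and the 3 normal colon samples (blue), with a bar at the mean of 3. Wif1 lies at 1159.9, 985 and 1403 in polyps and 35, 26.7 and 23.7 in normal colon, while the points of Dusp6 overlap.

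In the EGF family 2 of 13 genes were higher and 2 lower, and without polyp 1 the count of higher genes was 1. Ereg, the EGF receptor ligand epiregulin, was at 679.6, 694 and 310.3 in polyps, against 110.4, 78.8 and 130.5 in normal colon (difference 2.17 ± 0.33, SE; limma, adjusted p = 0.00217). Egfr (-0.41) and Erbb2 (-0.25) were not called. The receptor inhibitors Lrig1 (-1.43) and Lrig3 (-2.10) were lower. Of 18 genes of MAPK output 6 were higher and 0 lower. Etv5, a factor that MAPK signalling induces, was at 837, 797 and 1024 in polyps, against 107, 85.1 and 87.2 in normal colon (difference 3.04, adjusted p = 4.64e-05). Dusp4, a phosphatase of MAP kinases, was at 690.3, 561 and 884 in polyps, against 37.8, 107 and 86.8 in normal colon, and Ier3, an early response gene, at 1851, 1648 and 1927 in polyps, against 197, 237 and 216 in normal colon. The members often used as readouts did not all follow. Dusp6 was at 861, 614 and 737 in polyps, against 705, 899.6 and 729 in normal colon, Spry2 differed by -0.38 and Fos by -0.69, and none of these was called.

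BMP, activin and TGF-beta genes were higher in 12 of 29 cases and lower in 2. Without polyp 1 or normal colon 3 the count of higher genes was 8, and without polyp 3 that of lower genes was 3. The subunits of activin led the list. Inhba was at 641, 308 and 557 in polyps, against 11.1, 57.7 and 72.9 in normal colon and Inhbb at 406, 298 and 367 in polyps, against 31.3, 27.1 and 43.1 in normal colon, differences of 3.14 ± 0.44 and 2.90 ± 0.23 (SE; limma, adjusted p = 0.00133 and 6.72e-05). Their inhibitor Fst was at 140.5, 125 and 229 in polyps, against 69.5, 35.8 and 52.8 in normal colon. Bmp2, a ligand of the crypt surface, was at 221, 169.8 and 158 in polyps, against 672, 559 and 424 in normal colon, and Bmp7 at 285, 200.1 and 379 in polyps, against 134, 70.9 and 62.4 in normal colon. Id4, a target of BMP signals, was lower (-2.93), Id2 was higher (1.17) and Id1 was not called (-0.14). Tgfbi, which TGF-beta induces, was at 2466, 1456 and 1886 in polyps, against 541, 725 and 568 in normal colon. Smad4 was at 1386, 1135 and 1428 in polyps, against 1347, 1796 and 1468 in normal colon and was not called.

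Notch genes went in both directions, with 4 higher and 3 lower of 24. Hey1, a target of Notch, was at 139.9, 144 and 122 in polyps, against 17.2, 13.9 and 15 in normal colon, while Hes1, another target, was at 447, 449 and 529 in polyps, against 466, 457 and 494 in normal colon and was not called. The ligand Dll1 was lower (-1.27), and so was Atoh1, which Notch represses and which is given above. In the Hedgehog list, 2 of 13 genes were lower and 0 higher. Hhip, a feedback inhibitor, was at 28.4, 37.2 and 22.8 in polyps, against 109, 97.3 and 93.2 in normal colon. The ligands Ihh (-0.32) and Shh (-0.38) were not called, and Shh was at 266, 286 and 1045 in polyps, against 406, 652 and 695 in normal colon. Without polyp 3 Shh was called lower (-1.0) and the list had 3 lower genes, and without any other array it had 1.

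Prostaglandin genes differed at both ends of the pathway. Ptgs2, the inducible cyclooxygenase, was at 614, 614 and 153 in polyps, against 52.4, 46.9 and 75.1 in normal colon (difference 2.47 ± 0.46, SE; limma, adjusted p = 0.00615), with polyp 3 the lowest polyp. Without polyp 3 the difference was 3.11. Hpgd, which inactivates prostaglandin E2, was at 91.8, 158 and 188 in polyps, against 1489, 1762 and 1214 in normal colon (difference -3.25 ± 0.28, SE; adjusted p = 0.000109), and Slco2a1, which imports it for that step, differed by -1.49. Abcc4, which exports it, was at 1054, 947 and 1263 in polyps, against 149, 187 and 184 in normal colon. Of the receptors, Ptger3 was lower (-1.93), while Ptger4 (-0.04) and Ptger2 (0.28) were not called. Alox12, a lipoxygenase, was at 1020.0, 793 and 1213 in polyps, against 22, 16.6 and 29.9 in normal colon, among the 15 largest increases. In the whole list 5 of 21 genes were higher and 4 lower, and 3 were higher when any array other than polyp 2 was left out.

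Other growth factors gave single genes rather than groups. Igf1, the insulin-like growth factor, was at 924, 679 and 1395 in polyps, against 186, 189.8 and 248 in normal colon, and Igfbp5, one of its binding proteins, at 1945, 1754 and 2670.2 in polyps, against 239, 516 and 650.2 in normal colon, while Igfbp2 was lower (-1.89) and Igf1r was called (-0.95) only without polyp 3, when 4 insulin-like growth factor genes were lower against 2 over all arrays (Igf1r then -0.79, not called). Fgfr3, a receptor of crypt cells, was at 51.9, 5.88 and 94.6 in polyps, against 299, 315 and 342 in normal colon, a difference of -2.61 that became -1.95 without polyp 2. Tnfrsf11b, the decoy receptor osteoprotegerin, was at 556, 574 and 426 in polyps, against 11.7, 14.2 and 6.0 in normal colon (difference 4.33, limma, adjusted p = 1e-05), and Tnfrsf12a, the receptor of Tweak, at 633, 477 and 679.7 in polyps, against 18.7, 75.9 and 97.5 in normal colon. Other NF-kappaB genes were mostly neither, with 4 of 22 higher and 0 lower, and 7 higher without polyp 3. Nfkbia was at 4129.7, 2985 and 3843 in polyps, against 4880.4, 4389.5 and 2924 in normal colon and Tnfaip3 at 887, 458 and 429 in polyps, against 651, 934 and 544 in normal colon, and neither was called. Of 20 FGF and PDGF genes 3 were higher and 3 lower, and without polyp 1 none of the list was higher.

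Proliferation genes were higher in part. DNA replication genes were higher in 6 of 29 cases and lower in 0, and mitosis genes in 8 of 30, with 1 lower. Their medians were 0.60 and 0.60. Mki67, the usual marker of dividing cells, was at 728, 682 and 947 in polyps, against 735, 725 and 354 in normal colon, and Pcna, the clamp of DNA polymerase, at 2892, 2364 and 3523 in polyps, against 2598, 2036 and 1184 in normal colon, and neither was called. Normal colon 3 was the lowest sample in both genes. Pole, a DNA polymerase gene, had the largest difference of the replication list, 3.03 to 3.78 with each array left out, and always kept its call. Mcm3, a subunit of the replicative helicase, was at 672, 735 and 694 in polyps, against 359.8, 259 and 184 in normal colon (limma, adjusted p = 0.00689). Plk1, a mitotic kinase, was at 409, 338 and 556 in polyps, against 189, 184 and 84.8 in normal colon (limma, adjusted p = 0.0138). Mcm3 and Plk1 kept their calls with any array left out too. The counts moved with the arrays. Without normal colon 1, 9 genes of each list were higher. Without polyp 1 or normal colon 3, 2 of each list were higher, and without polyp 2 or normal colon 2, 2 replication genes were. Foxm1 was called lower (-0.90) on its brightest probe set, while another of its probe sets was called higher (1.93), so that it has no direction here, and without any array but polyp 3 it was not called.

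Regulators of the entry into the cycle were called in both directions, with 7 of 20 higher and 3 lower. Without polyp 1 these counts were 4 and 1, and without polyp 2 or normal colon 2 the count of lower genes was 1. Cdk4, a kinase partner of cyclin D, was at 1243, 1049 and 1688 in polyps, against 464, 437 and 394 in normal colon (difference 1.56 ± 0.24, SE; limma, adjusted p = 0.00239), Ccnd1 at 1700.4, 1772 and 1935 in polyps, against 571, 898 and 838 in normal colon and Ccne1 at 265, 252 and 256 in polyps, against 108, 64.4 and 52.9 in normal colon. Ccnd2, another cyclin D, was at 1621, 1454 and 2045 in polyps, against 1401, 1934 and 2261 in normal colon and was not called. Of the inhibitors, Cdkn1b was lower (-1.18) and Cdkn1c was higher, at 560.2, 322.6 and 549.5 in polyps, against 77, 93.8 and 72.5 in normal colon. Cdkn1a, a target of p53, was not called (-0.70), while its fellow targets Phlda3 (1.54) and Mdm2 (1.11) were higher. The call of Mdm2 was lost without polyp 1. Ribosome biogenesis genes were higher in 12 of 26 cases and lower in 0, with a median of 0.65. Nop56, of the small nucleolar particle, was at 634, 592 and 695 in polyps, against 273, 278 and 293 in normal colon, and Nolc1, a nucleolar phosphoprotein, at 394, 438 and 466 in polyps, against 226, 203 and 199 in normal colon. Without polyp 1 the count of higher ribosome biogenesis genes was 2, and leaving out any other array gave at most 8. After centring on housekeeping genes it was 4. Myc, which drives these genes, was at 687, 649 and 610.5 in polyps, against 171, 205 and 278 in normal colon (difference 1.53, adjusted p = 0.00239).

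Enzymes that cut extracellular matrix and genes of the plasminogen system were higher. Of 20 such genes 15 were higher and 0 lower, with a median of 1.84, and their summed signal was 14483 to 22891 in polyps, against 2933 to 4366 in normal colon. Mmp10, the stromelysin-2 gene, had the largest increase of all genes. Its signal was 4322, 2065 and 3214 in polyps, against 16.4, 13.7 and 13.2 in normal colon, a log2 difference of 6.66 ± 0.28 (SE; limma, adjusted p = 5.79e-06). Mmp13, a collagenase, was at 4103, 2234 and 3015 in polyps, against 32.4, 51.3 and 29.7 in normal colon (difference 5.84), and Mmp7, matrilysin, at 3499, 2766 and 3184 in polyps, against 91.9, 151 and 98.7 in normal colon (difference 4.63). Mmp12, the macrophage elastase, was at 650.1, 296 and 476 in polyps, against 6.80, 22.9 and 22.1 in normal colon and Mmp3, stromelysin-1, at 1420.3, 335 and 636 in polyps, against 63.4, 43.8 and 31.7 in normal colon. In every one of these genes polyp 2 was the lowest polyp, and all polyps were above all normal samples. Mmp9, a gelatinase that neutrophils store, was at 1002, 488 and 741 in polyps, against 11.1, 49.1 and 73.7 in normal colon. Mmp2, the other gelatinase, was at 680.4, 908 and 822 in polyps, against 786, 697 and 792 in normal colon and was not called. Plat, the tissue plasminogen activator, was at 2004, 1345 and 1864 in polyps, against 115, 56.3 and 105 in normal colon on its brightest probe set, while its other probe set gave -0.15 and was not called. Plaur, the urokinase receptor, differed by 2.03. The inhibitor Timp1 was higher as well (1.83), and Timp2 (-0.04) and Timp3 (0.21) were not called.

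The 4 metalloproteinase genes with the largest increases, Mmp10, Mmp13, Mmp7 and Mmp12, lie on chromosome 9. Of 9 measured Mmp genes on that chromosome 6 were higher (Mmp10, Mmp13, Mmp7, Mmp12, Mmp3 and Mmp8) and 3 were neither (Mmp1a, Mmp1b and Mmp20). Elsewhere, Mmp9, Mmp11, Mmp14 and Mmp19 were higher, and Mmp2, Mmp16, Mmp17 and Mmp24 were neither. AP-1, the dimer of Fos and Jun proteins, binds the letters TGANTCA, a palindrome when N is ignored, and its sites in collagenase and stromelysin promoters are a textbook case. Promoter windows of RefSeq (GRCm38.p6), from 250 bases before to 50 after each start site, were searched for it on both strands. Of the 20 genes of this list 14 had a window, and 7 of them held the letters. Over all 32851 windows the share was 7.81%, over the tested genes with a window it was 7.4%, and over the higher genes it was 7.45%. Over the lower genes it was 9.35%, and 7 of 20 interferon response genes with a window (35%) held the letters too. Serpinb2, which is among the 7 genes of this list with the letters, was not called (-0.46). The 5 promoters below are shown because they belong to the 5 chromosome 9 genes with the largest increases and each holds 1 match. They run from 120 bases before the start site to 20 after it, 5' to 3', with the match in capitals. Of Mmp12 and Mmp7, which have 2 windows each, the window with the match is shown.
Mmp10 (plus strand, chr9:7502222-7502361): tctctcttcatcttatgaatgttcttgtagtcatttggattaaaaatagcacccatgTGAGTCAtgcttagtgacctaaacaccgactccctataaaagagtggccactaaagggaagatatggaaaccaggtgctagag
Mmp13 (plus strand, chr9:7272394-7272533): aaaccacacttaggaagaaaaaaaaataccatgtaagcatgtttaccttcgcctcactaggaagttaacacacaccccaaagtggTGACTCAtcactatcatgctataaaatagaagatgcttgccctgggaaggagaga
Mmp12 (plus strand, chr9:7347254-7347393): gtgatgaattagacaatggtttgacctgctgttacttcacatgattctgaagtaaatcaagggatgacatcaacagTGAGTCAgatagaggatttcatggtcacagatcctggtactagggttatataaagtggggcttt
Mmp3 (plus strand, chr9:7445702-7445841): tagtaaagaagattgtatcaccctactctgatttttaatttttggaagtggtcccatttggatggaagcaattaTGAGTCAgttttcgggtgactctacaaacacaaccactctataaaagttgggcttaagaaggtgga
Mmp7 (plus strand, chr9:7691970-7692109): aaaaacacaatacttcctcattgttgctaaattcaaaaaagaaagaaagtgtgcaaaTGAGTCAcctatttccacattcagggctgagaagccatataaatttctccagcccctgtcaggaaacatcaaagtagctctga
The match begins 63 bases before the start site in Mmp10 and Mmp7, 35 in Mmp13, 44 in Mmp12 and 46 in Mmp3. It is a match of letters and not a measured binding site. Fos was not called (-0.69), and Fosl1, another AP-1 subunit, was at 187, 134 and 89.8 in polyps, against 56.6, 45.6 and 85.8 in normal colon, which missed the threshold (limma, adjusted p = 0.0613) and was called without polyp 3 (1.18).

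Matrix genes themselves were mixed. Of 32 genes of fibrillar collagen and matrix 10 were higher and 4 lower. Thbs1, thrombospondin-1, was at 1265, 929 and 1178 in polyps, against 104, 151 and 238 in normal colon (difference 2.72 ± 0.29, SE; limma, adjusted p = 0.000319), Lox, which crosslinks collagen, at 575, 315 and 647 in polyps, against 50.1, 75.8 and 69.9 in normal colon, and Col1a1, of type I collagen, at 954, 1195 and 2915 in polyps, against 371, 451 and 368 in normal colon, with polyp 3 the highest. Col3a1 (0.22), Dcn (0.08) and Sparc (0.48) were not called. The small proteoglycans Ogn (-2.04) and Lum (-1.35) were lower. In the basement membrane 6 of 18 genes were higher and 1 lower. Lama1, a laminin chain, was at 148, 118 and 129.5 in polyps, against 6.66, 14.3 and 4.44 in normal colon, and Lama5 at 670.0, 465 and 630.0 in polyps, against 187, 173 and 233 in normal colon. The type IV collagen chains differed, Col4a1 (1.40) and Col4a2 (1.70) being higher and Col4a5 lower (-1.52). Without polyp 3 the list had 2 lower genes.

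Genes of the muscle layer were lower, and those of fibroblasts went both ways. Smooth muscle genes were lower in 16 of 22 cases and higher in 1, with a median of -2.0. Myh11, the smooth muscle myosin, was at 45.6, 59 and 53.5 in polyps, against 1311, 1289 and 2309 in normal colon (difference -4.54 ± 0.27, SE; limma, adjusted p = 1.62e-05), and Des, desmin, at 10.2, 10.6 and 17.9 in polyps, against 442, 777 and 1354 in normal colon. Acta2, which myofibroblasts also use, was at 1301, 1202 and 2859.8 in polyps, against 5629.5, 4970.5 and 5291 in normal colon (-1.67). The higher member, Hspb8 (0.98), a small heat shock protein, kept its call only when normal colon 3 was left out. Fibroblast genes gave 3 higher and 7 lower of 19. Cxcl12, a chemokine of stromal cells, was at 95.8, 112 and 205 in polyps, against 790.1, 810.1 and 765 in normal colon, and Dpt, dermatopontin, at 197, 150.1 and 189.9 in polyps, against 907, 1071 and 1087 in normal colon. The 3 higher members, Pdgfra (0.84), Pdgfrb (0.99) and the BMP inhibitor Grem1 (1.11), each lost their call without polyp 1, and Pdgfra lost it with any array left out. Without polyp 2 the list had 2 higher genes, and without polyp 1, polyp 3, normal colon 2 or normal colon 3 it had 0. Nerve and Cajal cell genes were lower in 8 of 16 cases and higher in 0. Vip, a neuropeptide, was at 24.1, 39.2 and 9.12 in polyps, against 381, 232 and 497 in normal colon, and Ano1, a chloride channel of Cajal cells and some epithelia, at 638, 675 and 1009 in polyps, against 1894, 1926 and 1938 in normal colon. Without polyp 1, 4 genes of this list were lower. Adipoq, adiponectin, was at 23.4, 21.1 and 13.8 in polyps, against 355, 204 and 413 in normal colon. These lists move with the summed muscle, nerve and fat signals given above, and the part of those sums in the results was not tested.

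Endothelial genes were mostly neither, at 16 of 21. Pecam1, a junction protein of vessels, was at 161, 144 and 188 in polyps, against 117, 128 and 182 in normal colon, and Kdr, a VEGF receptor, at 127, 112 and 146 in polyps, against 152, 195 and 153 in normal colon, and neither was called. Of the list 5 were higher, and 3 when any array but normal colon 1 was left out. Vwf, the von Willebrand factor, was higher (0.99). The largest members were Sox17, at 1396, 1072 and 1162 in polyps, against 88.6, 36.5 and 78.2 in normal colon, and Prox1, at 223, 216 and 385 in polyps, against 27.4, 30.5 and 36.9 in normal colon, transcription factors that other cells of the gut can express too. Angpt2, a ligand that loosens vessels, was at 267, 174 and 276 in polyps, against 66.1, 56.7 and 35.5 in normal colon (difference 1.89). Vegfa was at 372, 278 and 322 in polyps, against 303, 228 and 217 in normal colon and was not called.

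**Figure D4:**
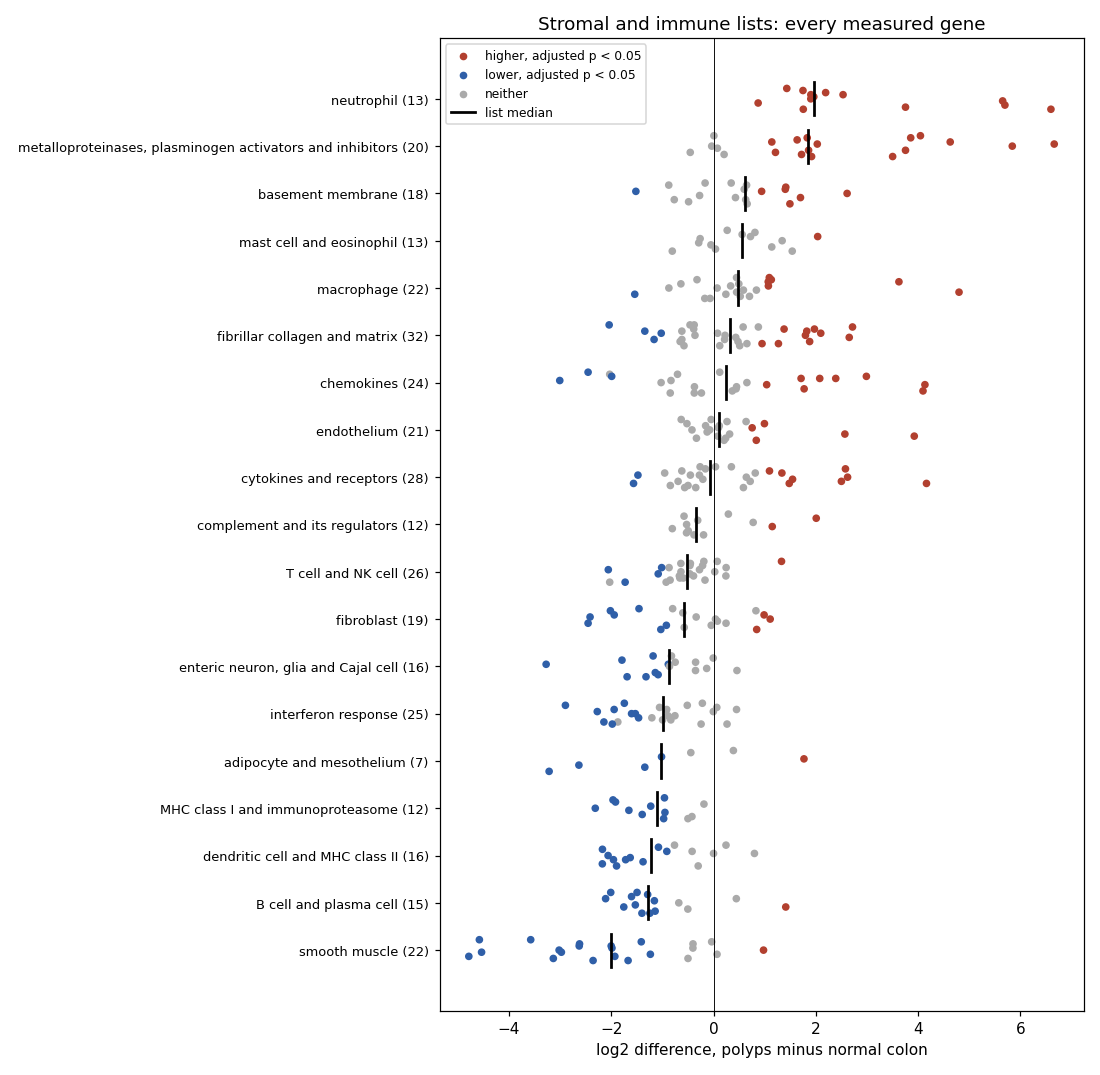
Log2 difference, polyps minus normal colon, of every measured gene of the stromal and immune lists, 1 point a gene, with red and blue points for genes called higher and lower by limma, grey points for neither and a black bar at each list's median. All 13 neutrophil genes are red (median 1.96), and 16 of 22 smooth muscle genes are blue (median -2.0).

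Neutrophil genes were higher wherever they were measured. Of 21 genes written in this list 13 were measured, and the others gave no value here. All 13 were higher, with 0 lower and a median of 1.96. Their summed signal was 8579.6 to 14415 in polyps, against 576 to 757 in normal colon. S100a9 and S100a8 form calprotectin, the main protein of neutrophil cytosol. S100a8 was at 3566, 2119 and 3816 in polyps, against 69.8, 42.2 and 30.1 in normal colon (log2 difference 5.65 ± 0.31, SE; limma, adjusted p = 1.04e-05). S100a9 was at 3491, 2105 and 3638 in polyps, against 65.4, 5.24 and 1.31 in normal colon, a difference of 6.60 ± 0.51 (adjusted p = 5.82e-05), and without normal colon 1 the difference was 7.29. Lcn2, lipocalin-2, was at 3378, 2428 and 3814 in polyps, against 37.2, 44 and 55.3 in normal colon, but epithelial cells make it as well. Ngp, a granule protein of neutrophils, was at 858, 264 and 915 in polyps, against 123, 86.9 and 152 in normal colon, and Trem1, a receptor that amplifies myeloid activation, at 158, 123 and 139 in polyps, against 54.3, 15 and 16.8 in normal colon. The chemokines that draw neutrophils were higher too. Cxcl5 was at 726, 877 and 1122 in polyps, against 58.5, 29.1 and 25.5 in normal colon, Cxcl2 at 1742, 969 and 543 in polyps, against 94.8, 32.1 and 20.5 in normal colon and Cxcl1 at 1218, 701 and 500.2 in polyps, against 239, 142 and 135 in normal colon, and polyp 3 was the lowest polyp in Cxcl1 and Cxcl2 but the highest in Cxcl5. Csf3, which codes for G-CSF, was at 70, 68.1 and 54.3 in polyps, against 21.9, 8.97 and 17.5 in normal colon.

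Of 28 cytokines and receptors 8 were higher and 2 lower. Il11, a cytokine of the Il6 family, was at 632, 458 and 254 in polyps, against 11.3, 2.02 and 13.4 in normal colon (difference 4.16 ± 0.34, SE; limma, adjusted p = 7.1e-05), and Il23a, a subunit of interleukin 23, at 181, 143 and 169.6 in polyps, against 7.53, 35.9 and 6.33 in normal colon. Il1b was at 1261, 892 and 400.0 in polyps, against 98, 139 and 135 in normal colon. In Il11 and Il1b polyp 3 was the lowest polyp and polyp 1 the highest. Socs3, a feedback inhibitor of Stat3, was at 768, 583 and 663 in polyps, against 229.7, 269 and 194 in normal colon. Il17a (-0.62), Il10 (-0.26) and Ifng (-0.69) were not called. The receptors of interleukin 22, Il22ra1 (-1.48) and the decoy Il22ra2 (-1.57), were lower, and the call of Il22ra1 was lost without normal colon 2. Without polyp 3 the list had 3 lower genes. Among chemokines, 8 of 24 were higher and 3 lower, and Ccl28, by which the colon epithelium draws plasma cells, was at 107, 195 and 232 in polyps, against 1879.9, 1617 and 1068 in normal colon. Without polyp 3, 5 chemokine genes were lower. Saa3, an acute phase protein, was at 2619, 1119 and 2420.5 in polyps, against 111, 66.9 and 33 in normal colon (difference 4.59).

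Macrophage genes were mostly neither, at 15 of 22, with 6 higher and 1 lower. Csf1r, the receptor that macrophages need, was at 1552, 1044 and 1092 in polyps, against 1365, 1262 and 1189 in normal colon, and Adgre1, which codes for F4/80, at 412, 254 and 252 in polyps, against 369, 313 and 335 in normal colon, and neither was called. Arg1, arginase 1, was at 531, 369 and 949.6 in polyps, against 2.03, 14.3 and 1.23 in normal colon, among the 15 largest increases (difference 4.80 ± 0.36, SE; limma, adjusted p = 5.21e-05), and Chil3, a chitinase-like lectin, at 482, 117 and 517 in polyps, against 2.17, 5.85 and 31.5 in normal colon (difference 3.62, and 4.27 without polyp 2). Both are known from alternatively activated macrophages and from myeloid cells of tumours in mice. Mertk, which clears apoptotic cells, was lower (-1.54). Without polyp 1 or normal colon 3, 2 macrophage genes were higher, and without polyp 3, 2 were lower.

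Genes of B cells and plasma cells were lower in 11 of 15 cases and higher in 1, and their summed signal was 8291 to 9747 in polyps, against 13897 to 17950.0 in normal colon. Cd79a, of the B cell receptor, was at 62.2, 60.9 and 34.2 in polyps, against 172, 479.5 and 246 in normal colon (difference -2.11 ± 0.35, SE; limma, adjusted p = 0.00355), and Jchain, which links polymeric antibodies, at 3541, 3525 and 3926 in polyps, against 9831, 7889.8 and 6864 in normal colon. Normal colon 2 was the highest sample in Cd79a, and without it 7 genes of the list were lower. The higher member was Sdc1, at 2916, 2302 and 3341 in polyps, against 762, 1191 and 1276 in normal colon, which codes for syndecan-1, a protein of plasma cells and of epithelia. The summed signal of T cell and NK cell genes was 1230 to 1617 in polyps, against 1942 to 2535 in normal colon. Gene by gene, they were neither in 21 of 26 cases, with 1 higher and 4 lower. Without polyp 1 none was higher, without polyp 2 or normal colon 2, 2 were lower, and without polyp 3, 6 were. Gzma, a granzyme, was at 49.4, 53.5 and 12.8 in polyps, against 199.6, 221 and 169 in normal colon (difference -2.06). Cd3e (-0.64), Cd8a (-0.93) and Foxp3 (0.07) were not called, and without polyp 3 Cd3e (-0.99) and Cd8a (-1.27) were called lower. Of mast cell and eosinophil genes 1 of 13 was called, and 2 without polyp 1 or normal colon 3. The mast cell proteases Mcpt1 and Mcpt2, which were not called, were at 937, 1964 and 514 and at 939, 1889 and 489 in polyps, against 172, 801 and 598 and 206, 864 and 858 in normal colon. They share sequence, and in both polyp 2 was the highest sample and normal colon 1 the lowest.

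Antigen presentation genes were lower. In MHC class II 10 of 16 genes were lower and 0 higher, with a median of -1.23. H2-Ab1 was at 435, 462 and 397 in polyps, against 1808, 2424 and 1826 in normal colon (difference -2.18 ± 0.22, SE; limma, adjusted p = 0.000245), and Cd74, the invariant chain, at 2409, 2038 and 1888 in polyps, against 7108, 8026 and 5910.2 in normal colon. Ciita, the factor that switches these genes on, was at 55.2, 24.6 and 26.7 in polyps, against 91.3, 149.6 and 106 in normal colon. Itgax (0.24), a marker of dendritic cells, was not called. In MHC class I 9 of 12 genes were lower and 0 higher. Psmb9, of the immunoproteasome, was at 303, 141 and 238 in polyps, against 1023, 1862 and 785 in normal colon, and Psmb8 at 628, 256 and 322 in polyps, against 1598, 1888 and 1135 in normal colon. Tap1, which loads peptides, was at 407, 108 and 169 in polyps, against 851, 1041 and 556 in normal colon, and its call was lost without normal colon 2. B2m (-0.98) and H2-D1 (-0.95) lost their calls without most of the arrays, B2m with any of the 6 left out and H2-D1 without polyp 1, polyp 2, normal colon 1 or normal colon 2. The count was 4 without normal colon 2 and 4 on the standardized values as deposited.

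Interferon response genes set polyp 1 apart from the other polyps. In all 3 polyps together 9 of 25 genes were lower and 0 higher, with a median of -1.0. Polyp 1 was the highest polyp in 24 of the 25 genes, while over all genes it was the highest polyp in 22.5%. The median of log2 signal in polyp 1 minus the mean of polyps 2 and 3 was 1.86 in these genes and -0.019 over all genes. Polyps 2 and 3 were below all 3 normal samples in 22 of the 25, and polyp 1 was at or above the lowest normal sample in 18. The share over all genes was not computed for these counts, so they only describe the list. With all 3 polyps, the groups did not overlap in 37.9% of all genes. Ifit1, which binds foreign RNA, was at 1844, 141 and 198 in polyps, against 1604, 1456 and 1276 in normal colon. Rsad2, the antiviral enzyme viperin, was at 2100.0, 111 and 119.7 in polyps, against 892, 733 and 468 in normal colon, and Ifit3 at 1191, 107 and 81.9 in polyps, against 499, 334 and 373 in normal colon. In all 3 genes polyp 1 was above every normal sample and polyps 2 and 3 below every one. Irf7, a factor that amplifies interferon, was at 1267, 275 and 257 in polyps, against 1351, 1836 and 1507 in normal colon, and Oasl2 at 1291, 228 and 166 in polyps, against 2544, 1653 and 1159.5 in normal colon. Without polyp 1 their differences were -2.47 and -3.02, and without any other array neither was called. The exception was Irf1, a factor that interferon gamma induces, at 549.7, 548 and 743 in polyps, against 2029.7, 2464 and 994 in normal colon, in which polyp 1 lay beside polyp 2 and whose call was lost without polyp 1, polyp 2 or normal colon 2. Without polyp 1, 16 genes were lower and the median was -1.50, with Ifit1 (-2.99), Rsad2 (-2.39) and Ifit3 (-1.91) among them. The count was 3 without polyp 2, polyp 3 or normal colon 2 and also 3 on the standardized values as deposited. With array weights the median of the list was -0.088. Over all alternative settings the lowest count of lower genes was 2, and the highest count of higher genes was 2. A single mouse stands behind this difference among polyps, and its treatment is the one that the labels leave unstated, so that mouse and treatment cannot be told apart.

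**Figure D5:**
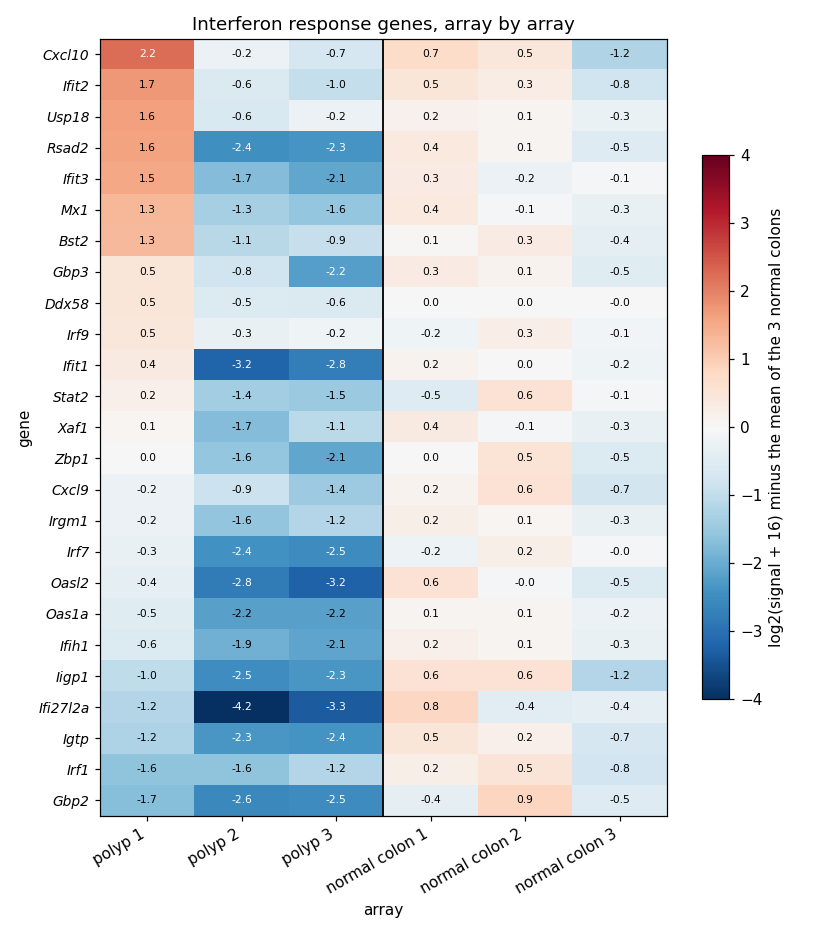
Log2(signal + 16) minus the mean of the 3 normal colon samples for the 25 interferon response genes (rows, ordered by polyp 1) in each array (columns, polyps left of normal colon), red above and blue below that mean. Polyp 1 is the highest polyp in 24 of 25 genes (22.5% over all genes). Polyps 2 and 3 lie below all normal samples in 22, for which no share over all genes was computed.

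The promoters of these genes are known for the interferon-stimulated response element. The letters GAAANNGAAA, a core of that element, were searched on both strands in the same promoter windows. They were found in 13 of the 20 interferon genes that have a window (65%), in 3.44% of all windows and in 3.77% of the tested genes with a window. The list was chosen by function but with earlier results of these data known, and the shares are a description. The 3 promoters below belong to the genes just described in which polyp 1 was above every normal sample. They cover the 190 bases up to the start site, 5' to 3', with matches in capitals. A match that lies on the other strand appears here as its reverse complement.
Ifit1 (plus strand, chr19:34640699-34640888): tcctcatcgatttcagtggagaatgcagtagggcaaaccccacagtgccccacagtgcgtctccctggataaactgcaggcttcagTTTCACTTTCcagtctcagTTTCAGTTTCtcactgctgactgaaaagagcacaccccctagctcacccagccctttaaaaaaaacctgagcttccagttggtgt
Ifit3 (plus strand, chr19:34583339-34583528): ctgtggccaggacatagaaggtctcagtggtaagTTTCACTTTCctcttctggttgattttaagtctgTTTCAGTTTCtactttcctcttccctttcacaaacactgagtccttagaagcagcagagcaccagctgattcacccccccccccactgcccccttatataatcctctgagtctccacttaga
Rsad2 (minus strand, chr12:26456453-26456642): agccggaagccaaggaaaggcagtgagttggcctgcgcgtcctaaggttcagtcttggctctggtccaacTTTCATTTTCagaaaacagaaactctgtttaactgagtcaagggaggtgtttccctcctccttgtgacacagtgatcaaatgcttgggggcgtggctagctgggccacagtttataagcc
Ifit1 and Ifit3 hold 2 matches each and Rsad2 holds 1. Ifit2, from the same cluster on chromosome 19, held none in its windows. Its signal was 1705, 328 and 249.5 in polyps, against 712, 619 and 282 in normal colon, with polyp 1 again the highest sample.

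Genes that differed most among the polyps were largely of this kind. Of the 10 genes with the widest range among polyps, 7 were interferon or related genes or chemokines, namely Ccl5, Ifi27l2a, Ifit1, Rsad2, Ifit3, Gbp2b and Cxcl11. The others were Slc26a3, Saa1 and Myl1. Saa1, an acute phase protein, was at 1.65, 1324 and 2726 in polyps, against 8743, 7273 and 5332 in normal colon, and the difference of -4.12 was not called over all arrays (limma, adjusted p = 0.0872) but was without polyp 1 (-1.87) or polyp 3 (-5.51). Myl1, a myosin light chain of skeletal muscle, was at 27.9, 26.8 and 1507 in polyps, against 46.6, 3.93 and 29 in normal colon, high in polyp 3 alone. Ccl5, a chemokine of T cells, was at 367, 8.63 and 34.1 in polyps, against 429, 317 and 202 in normal colon, and was called lower only without polyp 1 (-3.18). These genes were chosen for their spread among polyps, and the values are a description.

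Some of the largest decreases belong to no list. Mptx1, a pentraxin of the gut, was at 259.9, 65.1 and 70.5 in polyps, against 9307, 7709 and 6378 in normal colon (difference -5.95 ± 0.43, SE; limma, adjusted p = 4.31e-05). Sycn, which codes for syncollin, a protein of secretory granules, was at 93.4, 205 and 164 in polyps, against 3616, 5036 and 4595 in normal colon. Gsdmc2, a gasdermin, was at 52.4, 138 and 186 in polyps, against 2721, 3831 and 3794 in normal colon, and its relatives share sequence with it. Car3, a carbonic anhydrase of muscle and fat, was at 47.7, 22 and 25.4 in polyps, against 1667, 575 and 1325 in normal colon, and moved with the muscle and fat markers given above. In Mptx1, Sycn and Car3, as in the other genes of the 15 largest increases and 15 largest decreases, the groups did not overlap, which was part of how those genes were chosen.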

How the data were processed

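RNA of the 6 samples had been hybridised to 1-colour Affymetrix MOE430_2 arrays, 1 array for each animal. The authors deposited values on a standardized scale, a score with mean 0 and SD 1 on each array. The sources used here do not give the software that summarised the probes. The deposited scores, like the natural log of an array signal, could be turned back into signals in whole steps of 0.1 with a floor of 1, which gave each array's own mean and SD. Signals were then scaled so that the geometric mean of each array was 100. Before scaling this mean was 104 to 178 in polyps and 69.1 to 122 in normal colon. The brightest signals of the 6 arrays, also before scaling, lay between 10651 and 12509, near a common ceiling. Scaling puts that ceiling lower on arrays with a higher mean. Differences of bright genes can therefore be understated or overstated, and the part of this in the results was not tested. Arrays hold no counts, and their number limits the precision.

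Of 35110 probe sets, 44 controls were left out. A gene symbol came from the platform annotation, which named 1 gene for 28153 probe sets, several for 769 and none for 6144. Through Entrez identifiers 28030 matched a current RefSeq record and no symbol changed. Log2(signal + 16) of 35066 probe sets was tested two-sided with limma 3.58.1 (lmFit and eBayes, R 4.3.3) over the 6 arrays, unpaired, with Benjamini-Hochberg adjustment over all probe sets and a threshold of 0.05. The gene was then read from its probe set with the highest mean signal. The fit was also run on simulated arrays with independent noise for each probe set and differences placed only in brighter probe sets. That run checks the steps of the fit and not the calls in these data. The p-values measure the spread between single mice.

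The members and the 65 gene lists (1209 measured genes) were chosen with earlier results of these data known, and the lists share genes. Named genes were the 15 largest increases and 15 largest decreases with groups that do not overlap, up to 4 called genes of each list with the largest differences, genes marked in the lists as textbook members, and the 10 genes with the widest range among polyps. Other list members named in the text were chosen after their values were seen. Probe sets of gene families can read related genes. Alternatives were other scalings, offsets, filters, variance models and probe set rules, the fit over all 24 arrays, and each array left out in turn. Promoter sequences are from RefSeq, GRCm38.p6.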

Additional observations from a re-analysis of the deposited data

How the results depend on the processing

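No paired analysis was possible because no animal gave more than 1 of the 6 arrays, by the names in the labels, although the study's methods call the tissue paired. Centring on housekeeping genes gave 898 higher and 786 lower genes. Against 1172 higher and 1417 lower genes, array weights gave 2824 and 3132, and leaving out each array gave 637 to 1019 higher and 848 to 1576 lower. Over probe sets, against 2506 higher and 2594 lower, an offset of 1 gave 1662 and 1714, array weights gave 6363 and 6519, centring on housekeeping genes left 1381 lower, and leaving out each array gave 1334 to 2278 higher and 1442 to 2931 lower. The cause was not tested. The other 9 settings that left out no array gave 796 to 1621 higher and 966 to 1803 lower genes. Averaging all probe sets of a gene turned the direction of Tfrc (0.96 against -0.07), Foxm1 (0.39 against -0.90) and Cfp (-0.060 against 1.15), by construction, since their probe sets disagree. Quantile normalization moved the median of the glycolysis list to -0.03 against -0.33 and that of the respiratory list to -0.46 against -0.74. Medians near 0 changed sign with the scaling in the retinoid, metal handling, prostaglandin and cytokine lists.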

Other observations

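A few groups not described above gave values of their own. Among hypoxia and angiogenic genes 5 of 22 were higher and 1 lower in polyps. The count of higher genes was 3 without polyp 1, normal colon 1 or normal colon 2, and that of lower genes was 3 without polyp 3. Ddit4, an inhibitor of mTOR that hypoxia and glucocorticoids induce, was at 1912, 1724 and 2165 in polyps, against 866, 731 and 631 in normal colon (log2 difference 1.37; limma, adjusted p = 0.00334), and Stc1, a secreted glycoprotein, at 198, 215 and 176 in polyps, against 74.1, 68.6 and 62.4 in normal colon (difference 1.33, adjusted p = 0.00271). Higd1a, a mitochondrial protein that hypoxia induces, was at 587, 526 and 713 in polyps, against 1537, 1822 and 1145 in normal colon and was lower (difference -1.27). Unfolded protein response genes held 0 higher and 1 lower of 22, the lower one being Ern2, the stress sensor of mucus-secreting cells, at 109.9, 118 and 142 in polyps, against 191, 394 and 311 in normal colon. Its call was lost without polyp 1, polyp 2, normal colon 2 or normal colon 3, and without normal colon 1 the list had 2 lower genes.

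Of 11 genes of the small intestine 5 were lower and 0 higher. Fabp2, a fatty acid carrier of enterocytes, was at 23.9, 31.2 and 16.2 in polyps, against 263, 656 and 357 in normal colon (difference -3.39). In the complement list 2 of 12 genes were higher, and Cfi, a complement inhibitor, was at 183, 636 and 765 in polyps, against 123, 83.5 and 96.2 in normal colon. Without normal colon 2 none of the list was higher, and the call of Cfi was also lost without polyp 2 or normal colon 3. Of 15 Hox genes 2 were higher and 2 lower, and Hoxa9 was at 1841, 1419 and 2279 in polyps, against 761, 749 and 579 in normal colon (difference 1.37) and kept its call with any array left out. The 2 lower Hox genes were Hoxb13 and Hoxd13, the distal gut markers of the tissue check. With any array left out 1 Hox gene was higher, and without any array but polyp 3 none was lower. Red cell genes gave 0 higher and 0 lower of 2, and their summed signal was 11.9 to 22.8 in polyps, against 12.1 to 17.8 in normal colon.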
